A study of Mus musculus with 6 samples.

Results

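The AP-1 and EGR immediate early genes are transcription factor genes that were chosen by family name, with earlier results of these data known: Fos, Fosb, Fosl1 and Fosl2 of the FOS family, Jun, Junb and Jund of the JUN family, and Egr1, Egr2 and Egr3 of the EGR family. All 10 were represented on the arrays by a probe set assigned to that gene alone, and together they are 10 of the 19938 genes tested. Each had only 1 such probe set, so that the choice among probe sets (the largest interquartile range over the 6 arrays) played no role for them, and no filter on low values was applied. They were measured in RAW264.7 cells, an established line of transformed mouse macrophages. The 10 macrophage markers checked had mean log2 values between 7.32 and 12.68 over both groups. Cd68, Lyz2 and Csf1r, among the brightest of them, lay between 11.39 and 12.68, and Adgre1 was the lowest (7.32 and 7.49). The cells had been transfected with a mimic of miR-342-3p, that is, an RNA made to act like the mature microRNA (3 arrays), or with a scrambled negative control mimic (3 arrays), and RNA was taken 18 h later. Both groups thus received a small RNA and the transfection reagent, untransfected cells were not analysed here, and the mature mimic itself is not measured by these arrays. The samples of each group came from independent experiments, as the study states.

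AP-1 is a dimer of proteins with a basic DNA-binding region and a leucine zipper. JUN proteins can pair among themselves, whereas FOS proteins need a JUN or another zipper partner. EGR proteins bind DNA through zinc fingers. Many, though not all, genes of these families are switched on within minutes by growth factors, stress and microbial products. This runs through MAP kinases that act on SRF, its ternary complex partners and CREB, and the transcripts of such genes are short-lived. In macrophages the families take part in responses to CSF1 and to pathogens and in differentiation, and Egr2 is also expressed in alternatively activated macrophages.

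The mimic carries the sequence that defines its targets, and it is therefore shown with the seed (bases 2 to 8) in capitals. It was read from RefSeq (GRCm38.p6), where miR-342-3p lies on chr12:108658680-108658702 on the plus strand.
miR-342-3p: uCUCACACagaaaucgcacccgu

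Promoters of the members are shown because several of these genes moved together while others did not, and because the family regulates its own promoters. Entries of RefSeq (GRCm38.p6) were matched for 7 of the 10 genes, namely Fos, Fosb, Fosl2, Jun, Junb, Jund and Egr2, the last with 5 start sites. Each window of 300 bases (250 before and 50 after the start) was searched on both strands for the AP-1 site TGAGTCA, the CRE TGACGTCA, the variant TGACATCA, the EGR sites GCGTGGGCG and GCGGGGGCG, the TATA box TATAAA and the CArG box of SRF, none of whose matches overlapped another. Capitals mark the matches in the stretch between 100 bases before and 50 bases after the start, for Fos and Fosb, which were higher, for Jun, which was not called, for Junb, and for the third listed start of Egr2.
Fos, chr12:85473790-85473939, plus strand: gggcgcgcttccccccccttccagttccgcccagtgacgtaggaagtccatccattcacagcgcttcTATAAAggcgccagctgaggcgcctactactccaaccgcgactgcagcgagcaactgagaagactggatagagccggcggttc
Fosb, chr7:19309996-19310145, minus strand: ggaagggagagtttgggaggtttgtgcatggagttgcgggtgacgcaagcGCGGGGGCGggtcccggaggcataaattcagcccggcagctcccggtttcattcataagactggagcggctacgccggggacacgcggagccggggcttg
Jun, chr4:95052173-95052322, minus strand: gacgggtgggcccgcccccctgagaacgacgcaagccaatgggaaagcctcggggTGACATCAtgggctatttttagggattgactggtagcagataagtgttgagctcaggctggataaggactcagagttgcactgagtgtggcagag
Junb, chr8:84978699-84978848, minus strand: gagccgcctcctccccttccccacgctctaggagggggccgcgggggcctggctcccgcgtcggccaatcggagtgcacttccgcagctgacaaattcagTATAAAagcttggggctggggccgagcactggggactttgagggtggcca
Egr2, chr10:67537769-67537918, plus strand: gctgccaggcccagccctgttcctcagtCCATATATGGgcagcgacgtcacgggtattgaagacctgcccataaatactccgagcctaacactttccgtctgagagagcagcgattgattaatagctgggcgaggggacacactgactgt

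Fos had TATAAA beginning at -33 from the start site (13.6% of the 32851 promoter windows in the table hold this motif). Junb had it at 1, that is, at the listed start site itself and not upstream of it as in Fos. Whether this match serves as a TATA box was not tested. Fosb had GCGGGGGCG at -50 and Fosl2 at -79 (2.91% of all windows). Jun had TGACATCA at -45 (3.62% of all windows), a variant that JUN-ATF2 dimers are known to bind in the human promoter. Egr2 had a CArG box in 4 of its 5 windows, 3 of which overlap and share the same match (1.63% of all windows). TGAGTCA, TGACGTCA and GCGTGGGCG (5.20%, 1.79% and 0.612% of all windows) were not found in any window of these genes, and Jund had no match at all. Sites farther from the start lie outside these windows.

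Of the 10 genes, 4 were higher in miR-342-3p-transfected cells and 0 lower, whereas 4.14% of all genes tested were higher and 7.42% lower (11.6% in either direction). The genes that rose were Fos, Fosb and Fosl1 of the FOS family and Egr1 of the EGR family, by 1.34- to 1.62-fold. Calls were made with limma, a linear model with a moderated estimate of the spread, at an FDR under 0.1 by the Benjamini and Hochberg method over all genes, and a positive log2 fold change means a higher value in miR-342-3p-transfected cells. At an unadjusted p under 0.05, 6 members were higher and 0 lower, whereas 12.5% of all genes were higher and 13.0% lower at that level. The methods' t-test, without a moderated spread, gave 5 members at that level, where 2080 of all 19938 genes were higher, and 0 after adjustment. No overlap between the groups was found in 7 members, each with the higher values in miR-342-3p-transfected cells, compared with 21.4% of all genes (and 15.5% with the lower values). The split of all calls depends on the scaling: higher genes were 35.8% of the calls (825 higher and 1479 lower) in the deposited values, 22.8% with each array centered on its median (408 higher and 1384 lower) and 56.2% with quantile normalization repeated (1826 higher and 1422 lower). The 4 members were called higher under both.

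**Figure D1:**
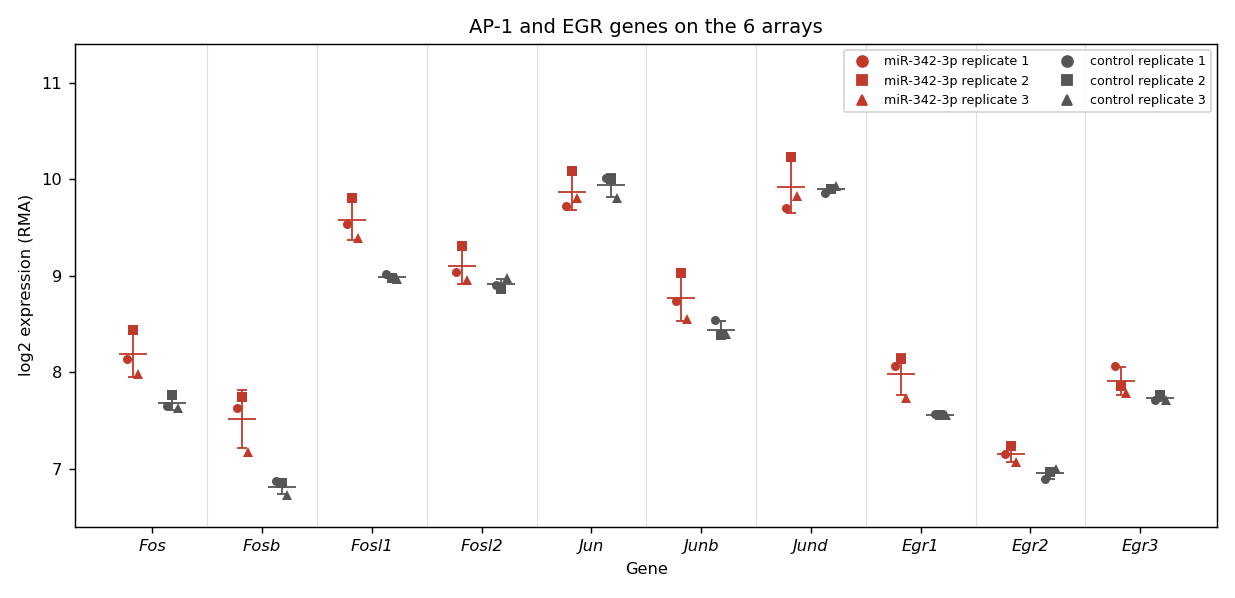
log2 expression (y axis) of the 10 genes (x axis), with miR-342-3p-transfected samples in red left of the control samples in grey, 1 symbol per array; horizontal marks are means and bars are SD (n = 3 arrays). The groups do not overlap in Fos, Fosb, Fosl1, Junb, Egr1, Egr2 and Egr3, and they overlap in Fosl2, Jun and Jund.

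In the FOS family, Fos, the founding member (chr12:85473890-85477274, GRCm38.p6), had log2 values of 8.14, 8.44 and 7.98 in miR-342-3p replicates 1, 2 and 3, against 7.65, 7.76 and 7.63 in the control replicates. Every miR-342-3p array lay above every control array, and the log2 fold change was 0.50 (standard error 0.12, 95% CI 0.24 to 0.77, FDR = 0.046 by limma). Fosb (chr7:19302696-19310118), whose product can activate transcription as FOS does, had values of 7.63, 7.74 and 7.17 in miR-342-3p-transfected cells and of 6.87, 6.85 and 6.73 in control cells. This was the largest change of the 10 genes, at 0.70 on the log2 scale (standard error 0.14, FDR = 0.031) or 1.62-fold, and replicate 3 changed least (0.36, against 0.82 and 0.93 in replicates 1 and 2). Fosl1 (chr19:5447698-5455938), which encodes FRA1, a FOS protein without the transactivation domain of FOS, had values of 9.54, 9.80 and 9.39 in miR-342-3p-transfected cells, against 9.02, 8.98 and 8.97 in controls. The control arrays of Fosl1 differed by an SD of only 0.025, and its log2 fold change was 0.59 (standard error 0.11, FDR = 0.025).

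Fosl2 (chr5:32136472-32157840), which encodes FRA2, a regulator of osteoclasts and bone, differed from these genes in that its groups overlapped. It had log2 values of 9.04, 9.31 and 8.96 in miR-342-3p-transfected cells and of 8.90, 8.86 and 8.97 in control cells, and only replicates 1 and 2 lay above all controls. Its log2 fold change of 0.19 (95% CI -0.044 to 0.42, FDR = 0.27) did not pass the test, and the interval holds both 0 and positive changes as large as 0.42.

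None of the 3 JUN genes passed the test. Jun (chr4:95049036-95052222), the main transactivating partner of FOS, had log2 values of 9.72, 10.09 and 9.80 in miR-342-3p-transfected cells, against 10.01, 9.997 and 9.80 in control cells. Its miR-342-3p arrays lay on both sides of the control mean, and the log2 fold change was -0.068 (95% CI -0.32 to 0.19, FDR = 0.70). Jund (chr8:70697739-70700616), a member that is expressed in resting cells and is known to slow growth in fibroblasts, had values of 9.71, 10.23 and 9.83 in miR-342-3p-transfected cells and of 9.85, 9.90 and 9.93 in controls. Only replicate 2 was above the controls, and the log2 fold change was 0.025 (95% CI -0.26 to 0.31, FDR = 0.91). Junb (chr8:84976909-84978748), which can oppose JUN and acts in macrophage activation, stood between these genes and the FOS genes, with values of 8.74, 9.03 and 8.55 in miR-342-3p-transfected cells and of 8.54, 8.39 and 8.40 in control cells. Its groups did not overlap, although replicate 3 exceeded the highest control by little, and the log2 fold change of 0.33 (standard error 0.12, 95% CI 0.055 to 0.60) had an FDR of 0.14. Without miR-342-3p replicate 3 it was called (0.44, FDR = 0.040), as it was with repeated quantile normalization (FDR = 0.081) and among genes at or above the median level (FDR = 0.098).

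Among the EGR genes, Egr1, which encodes a zinc finger activator induced by growth factors and stress, had log2 values of 8.06, 8.14 and 7.73 in miR-342-3p-transfected cells, against 7.57, 7.56 and 7.55 in controls. The controls were nearly identical (SD 0.0080), the groups did not overlap, and the log2 fold change was 0.42 (standard error 0.11, FDR = 0.062). Egr2 (chr10:67534469-67542188), whose product is needed for myelination by Schwann cells, had values of 7.16, 7.24 and 7.07 in miR-342-3p-transfected cells and of 6.89, 6.97 and 7.00004 in control cells, a log2 fold change of 0.20 (95% CI 0.024 to 0.38, FDR = 0.16). Egr3 (chr14:70077317-70082613), known from muscle spindle development, had values of 8.07, 7.86 and 7.79 in miR-342-3p-transfected cells and of 7.71, 7.76 and 7.72 in control cells, a log2 fold change of 0.18 (95% CI -0.027 to 0.38, FDR = 0.24). The groups of Egr2 and Egr3 did not overlap either, but neither gene passed the test over all genes. Egr2 was called only when miR-342-3p replicate 3 was left out (FDR = 0.090).

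**Figure D2:**
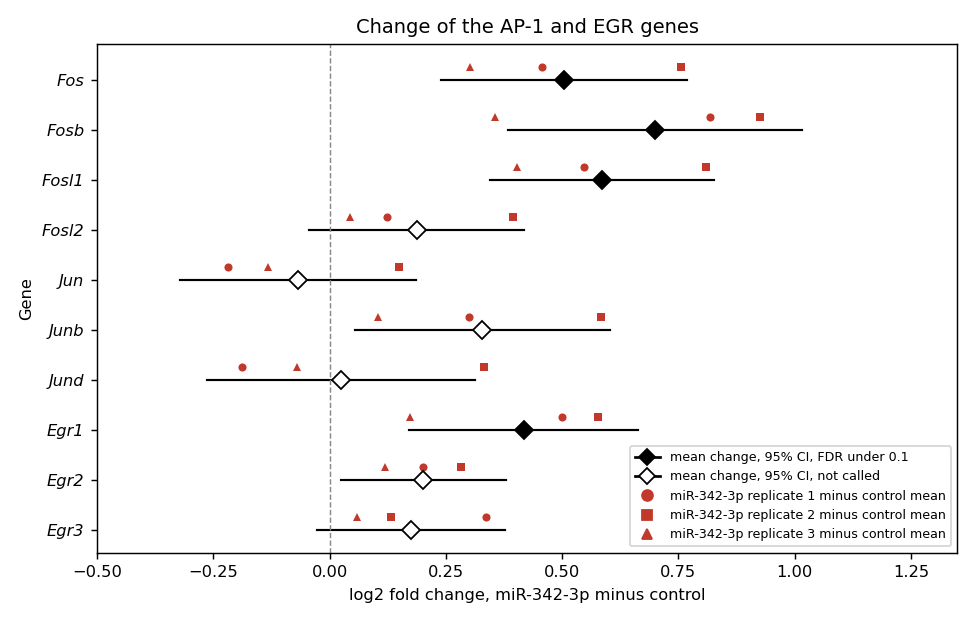
log2 fold change (x axis, miR-342-3p minus control) of the 10 genes (y axis); diamonds are mean changes with their 95% CI from limma, filled where the FDR was under 0.1, and red symbols are the single miR-342-3p replicates minus the control mean. The intervals of Fosl2, Jun, Jund and Egr3 include 0, and replicate 3 (triangle) lies nearest to 0 in each gene.

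The miR-342-3p replicates did not contribute equally. Replicate 3 had the change of the smallest size in all 10 genes (52.8% of all genes tested), and replicate 2 had the highest value in 9 of them (31.9% of all genes), Egr3 being the exception with its highest value in replicate 1. The median change of the 10 genes was 0.32 in replicate 1, 0.49 in replicate 2 and 0.11 in replicate 3, whereas the median of all genes was 0.11, 0.036 and 0.025. Replicate 3 also lay nearest to the controls across all genes, with a score of 0.85 on the first principal component, against 28.67 and 20.85 for replicates 1 and 2 and -18.71 to -15.79 for the control arrays. The spread of the miR-342-3p arrays exceeded that of the controls in each of the 10 genes (SD 0.082 to 0.30, against 0.0080 to 0.12), as it did in 84.9% of all genes.

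To see whether FOS genes moved relative to JUN genes, the log2 ratio of a FOS gene over a JUN gene was taken within each array, a measure from which any factor common to the array cancels. These ratios compare changes and not the levels of different transcripts, and they were chosen after the values had been seen. The 12 ratios were formed from only 7 genes, of which 4 did not overlap between the groups by themselves, so that they are not independent, and their share among other gene pairs was not determined. As a description, 10 of them were higher in every miR-342-3p array than in any control array. The Fos/Jun ratio was -1.58, -1.65 and -1.82 in miR-342-3p replicates 1, 2 and 3, against -2.36, -2.23 and -2.18 in controls, a change of 0.57. The Fosl1/Jun ratio was -0.18, -0.29 and -0.41 in miR-342-3p-transfected cells and -0.99, -1.02 and -0.83 in control cells, a change of 0.65, and Fosb/Jun changed most (0.77). Relative to Junb the changes were smaller, at 0.18 for Fos/Junb, 0.37 for Fosb/Junb and 0.26 for Fosl1/Junb. The Fos/Junb ratio was nearly the same in the 3 miR-342-3p arrays (-0.60, -0.59 and -0.56, against -0.89, -0.62 and -0.77 in controls), so that Fos and Junb differed between these replicates by similar amounts. For Fosl2 the ratios to Jun (0.25) and Junb (-0.14) overlapped between the groups. With 3 arrays against 3 an exact two-sided permutation test cannot go below p = 0.10, which each of these 10 ratios reached (adjusted p = 0.14 over the 15 ratios computed). Of the 3 ratios among EGR genes, Egr1/Egr3 did not overlap between the groups (change 0.24, exact permutation p = 0.10, adjusted p = 0.14), whereas Egr1/Egr2 (0.22) and Egr2/Egr3 (0.026) overlapped.

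**Figure D3:**
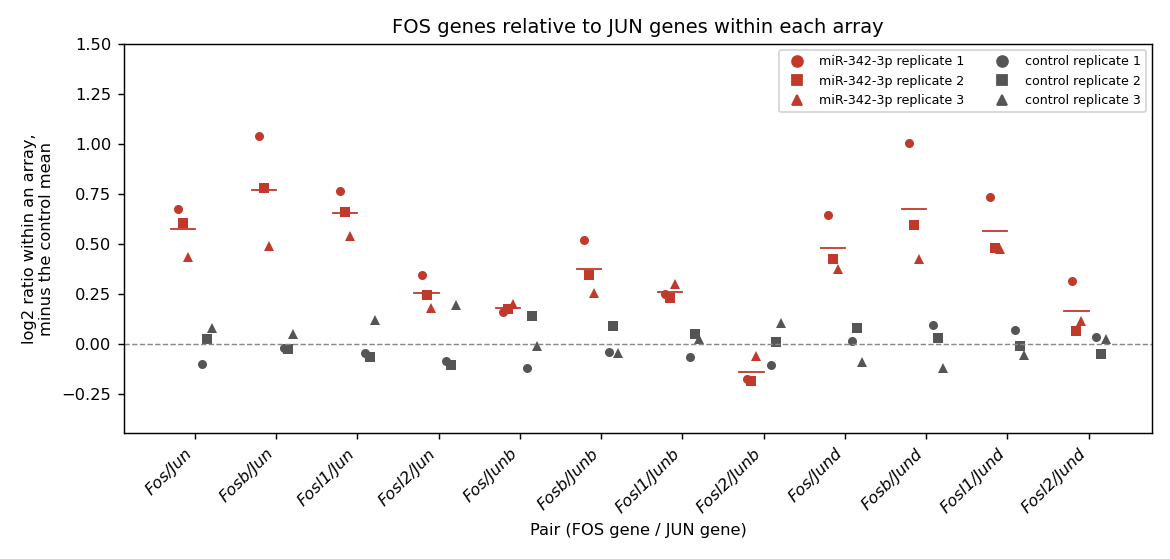
log2 ratio of a FOS gene over a JUN gene within each array, minus the control mean of that ratio (y axis), for 12 pairs (x axis); red symbols are miR-342-3p and grey symbols control arrays, and red lines are the mean change. All miR-342-3p arrays lie above all control arrays in 10 pairs, the exceptions being Fosl2/Jun and Fosl2/Junb.

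Other immediate early genes were set beside these families. Of 24 measured, 11 were higher and none was lower (4.14% and 7.42% of all genes), with a median log2 fold change of 0.30 (0.27 for the 10 AP-1 and EGR genes, 0.069 for all genes). At an unadjusted p under 0.05, 17 were higher and 0 lower (12.5% and 13.0% of all genes), and the methods' t-test called 0 after adjustment. Dusp1, a phosphatase that switches off MAP kinases, had log2 values of 11.49, 11.80 and 11.14 in miR-342-3p-transfected cells, against 10.28, 10.26 and 10.13 in controls, or 2.38-fold higher (FDR = 0.0085 by limma). The antiproliferative gene Btg2 rose by 1.08, Ier3, a regulator of survival, by 0.83, and Ptgs2, which encodes cyclooxygenase-2, by 0.76 on the log2 scale. Replicate 3 had the smallest median change in this list too (0.14, against 0.31 and 0.53 in replicates 1 and 2). Without a control array 4 or 5 of these genes were called higher, where 88 to 100 of all genes were. The genes were Btg2, Dusp1, Ier3 and Ptgs2 in each case and Nr4a2 without control replicate 3. The AP-1, EGR and other immediate early genes are also short: the 10 genes spanned 1840 to 21369 bases (median 4524) and the 24 others had a median of 5165, compared with 17705 for all genes, 14387 for those called higher and 31253 for those called lower. Whether the length of the genes bears on their change was not tested.

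Of 12 measured bZIP genes whose products can join AP-1 or related dimers, 4 were higher and none was lower (4.14% and 7.42% of all genes). At an unadjusted p under 0.05, 4 were higher and 0 lower (12.5% and 13.0% of all genes), and the methods' t-test called 0 after adjustment. Those called were Maff (0.45 on the log2 scale, FDR = 0.027), a small MAF protein, Atf4 (0.35, FDR = 0.079), the effector of the integrated stress response, Atf3 (0.34, FDR = 0.070), a stress-induced repressor of inflammatory genes, and Jdp2 (0.34, FDR = 0.056), which binds JUN. Leaving out any control array ended all 4 calls, and only 1 was made with each array centered. The EGR corepressors Nab1 and Nab2 and the remaining EGR gene, Egr4, were not called (1 higher and 0 lower at an unadjusted p under 0.05, and 0 by the methods' t-test after adjustment). Egr4 had the largest change of these 3 genes (0.28, FDR = 0.15), and its values of 7.81, 7.57 and 7.40 in miR-342-3p-transfected cells lay above those of 7.29, 7.33 and 7.32 in controls.

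Genes that act upstream of the families were called in both directions, and lower calls outnumbered higher ones here as they did among all genes (7.42% lower and 4.14% higher). Of 19 measured genes of the MAP kinase cascades (of 26 listed, the others not analysed here), 5 were lower and 1 was higher, with a median of -0.11. Lower values were found for Rps6ka5 (MSK1, -0.48, FDR = 0.034) and Rps6ka3 (RSK2, -0.38, FDR = 0.097), kinases that act on CREB and on chromatin at immediate early genes, for Map2k1 (MEK1, -0.35, FDR = 0.041), the activator of ERK, for Map3k1 (-0.33, FDR = 0.058) and for Map2k6 (-0.25, FDR = 0.097), which activates p38. Mapk7 (ERK5) was higher (0.28, FDR = 0.069). Among 12 factors that act on immediate early promoters, Mef2c (-0.49, FDR = 0.076), the SRF coactivator Mrtfb (-0.41, FDR = 0.085) and Creb1 (-0.32, FDR = 0.085) were lower and the CREB coactivator Crtc2 was higher (0.44, FDR = 0.025). Srf itself (-0.069, FDR = 0.60) and the ternary complex factors Elk1 (0.018), Elk3 (-0.072) and Elk4 (-0.14) did not pass the test. None of the calls among kinases and promoter factors was made when a control array was left out, and without miR-342-3p replicate 1 none of the promoter factors was lower. Of 5 genes that act on the turnover of FOS and JUN proteins, 0 were called by limma, and 0 by the methods' t-test after adjustment. At an unadjusted p under 0.05, 0 were higher and 2 lower (12.5% and 13.0% of all genes). The ubiquitin ligase gene Cop1 (-0.40, FDR = 0.101) and Cops5 (-0.36, FDR = 0.19) had the largest changes.

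Genes that are known to respond to AP-1 or EGR factors in macrophages or other cells were called in both directions. Of 19 measured, 3 were higher and 3 lower (4.14% and 7.42% of all genes). Their changes were positive in 15 and negative in 4 (12863 and 7075 of all genes), with a median of 0.19 (0.069 for all genes). At an unadjusted p under 0.05, 8 were higher and 3 lower (12.5% and 13.0% of all genes). Hmox1, which encodes heme oxygenase-1, had log2 values of 12.82, 13.03 and 12.67 in miR-342-3p-transfected cells, against 11.92, 11.94 and 11.90 in controls (log2 fold change 0.92, FDR = 0.0069). The growth factor gene Csf1 (0.67, FDR = 0.021) and the matrix protease gene Mmp9 (0.42, FDR = 0.034) rose as well. In contrast, Plau, the gene of urokinase and a known AP-1 target, had values of 9.64, 9.96 and 9.70 in miR-342-3p-transfected cells and of 10.48, 10.34 and 10.44 in controls (-0.65, FDR = 0.016). The chemokine gene Ccl2 (-0.31, FDR = 0.048) and the cyclin gene Ccnd1 (-0.24, FDR = 0.080) fell. With any 1 control array left out, Hmox1 and Plau were the only genes of this list that were called. Over all genes 88 to 100 were then higher and 102 to 140 lower. Without miR-342-3p replicate 3, 8 genes of the list were higher and 3 lower. Calls rose over all genes too in that setting, to 2104 higher and 2422 lower, from 825 and 1479 with all arrays. Whether the list gained more calls than other genes was not tested.

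**Figure D4:**
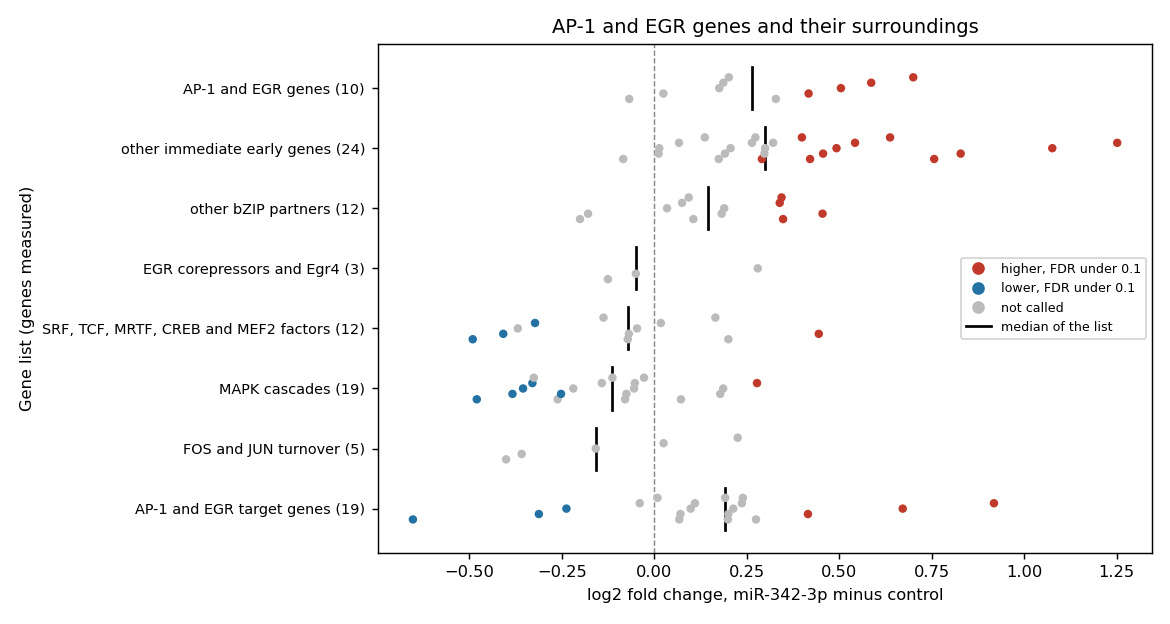
log2 fold change (x axis, miR-342-3p minus control) of the genes of each list (y axis, number measured in parentheses), with 1 point per gene, colored by its call at an FDR under 0.1, and a black line at the median of the list. The medians of the AP-1 and EGR genes (0.27) and of the other immediate early genes (0.30) lie to the right, and those of the promoter factors (-0.070) and MAP kinase cascades (-0.11) to the left of 0. Those of the target genes (0.19) and bZIP partners (0.14) also lie to the right. Those of the EGR corepressors and Egr4 (-0.050) and of the turnover genes (-0.16) also lie to the left.

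The calls of the 4 higher members were lost when any control array was left out, whereas their sizes hardly moved. Without control replicate 1, 2 or 3 their log2 fold changes stayed between 0.41 (Egr1) and 0.73 (Fosb), but none was called (FDR 0.11 to 0.21), and over all genes only 88 to 100 higher and 102 to 140 lower ones were called. Without miR-342-3p replicate 1 Egr1 missed the threshold (0.38, FDR = 0.13), and without replicate 2 the changes were 0.38 for Fos, 0.59 for Fosb, 0.47 for Fosl1 and 0.34 for Egr1, all called. Without replicate 3, the array nearest to the controls, they were 0.61, 0.87, 0.68 and 0.54, and 6 members were called. Over all genes 2104 higher and 2422 lower ones were called in that setting.

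**Figure D5:**
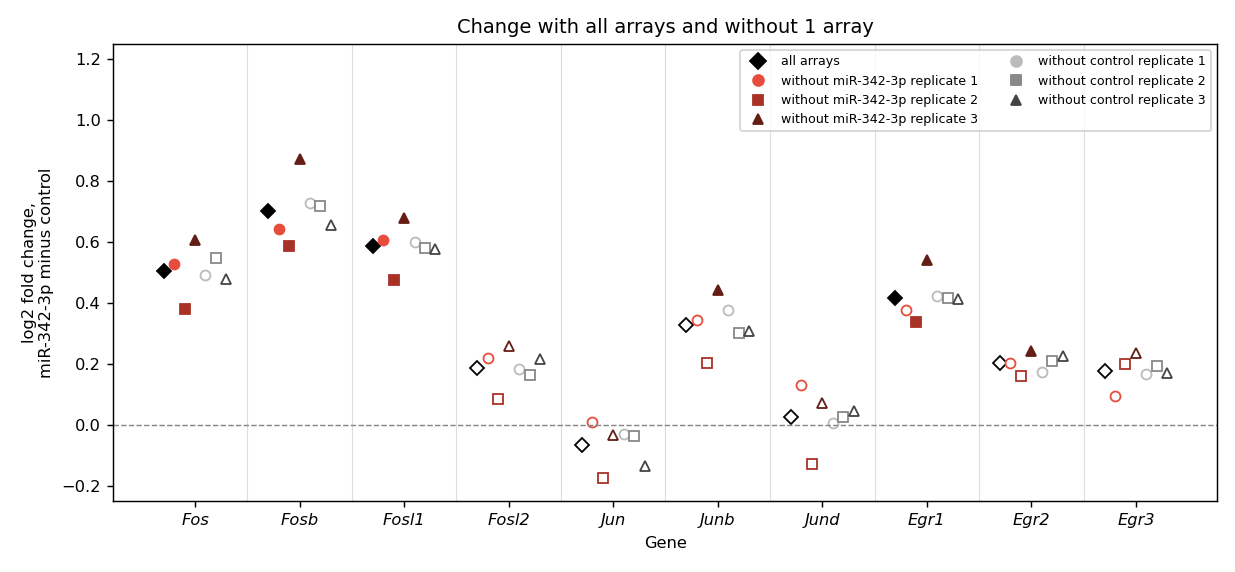
log2 fold change (y axis, miR-342-3p minus control) of the 10 genes (x axis) with all arrays (black diamond) and without 1 array (red for miR-342-3p, grey for control); filled symbols had an FDR under 0.1. Fos, Fosb and Fosl1 lie between 0.38 and 0.87 with any 1 array left out, and no gene is called without a control array.

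Markers of other cells were checked in the same arrays. The 10 macrophage markers had mean log2 values of 7.32 to 12.58 in miR-342-3p-transfected cells and of 7.49 to 12.68 in controls, and Spi1 was higher (0.35) while Fcgr1 (-0.35) and Itgam (-0.35) were lower. The 6 fibroblast markers lay between 4.85 and 8.12 in miR-342-3p-transfected cells and between 4.72 and 7.93 in controls, with Col1a1 the brightest. The 7 lymphocyte markers lay between 4.70 and 6.78 in miR-342-3p-transfected cells and between 4.41 and 6.64 in controls, where the array medians were 6.80 to 6.95 for miR-342-3p and 6.83 to 6.85 for control arrays. The single value above the median of its own array was that of Cd3e in miR-342-3p replicate 1 (7.02, with a median of 6.95). Of the fibroblast markers Pdgfra was higher (0.49, FDR = 0.031), and of the lymphocyte markers 0 were called by limma (1 higher and 0 lower at an unadjusted p under 0.05, and 0 by the methods' t-test after adjustment). Among all genes, 4.14% were called higher and 7.42% lower, and 12.5% and 13.0% at an unadjusted p under 0.05. The part of these markers in the changes of the AP-1 and EGR genes was not tested. In a bulk sample more cells that express a gene and more RNA of it per cell cannot be told apart.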

How the data were processed

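RNA of RAW264.7 cells transfected with miR-342-3p or negative control mimics (3 arrays each) was measured on Affymetrix mouse arrays (150 ng labeled). The authors processed the scans with RMA (version not given in the sources used here) and deposited log2 values for 35556 probe sets. Groups came from the labels. The number of arrays limits the precision.

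Probe sets with exactly 1 gene in the platform annotation (21789, whereas 1621 had several and 12146 none listed) were used, of which 21698 matched the RefSeq gene table (GRCm38.p6), and the one with the largest interquartile range represented a gene. The 19938 genes were fitted with lmFit and eBayes of limma 3.58.1 in R 4.3.3 with Benjamini and Hochberg adjustment. The steps were tested on simulated data in which both groups had the same spread. They were not tested with the larger spread of the miR-342-3p arrays seen in most genes here. Alternatives were a replicate block, each array left out, other probe set choices, a level filter, scalings, priors, weights, thresholds and the t-test named in the methods. Named genes are all members and, per list, up to 4 called genes in the main direction and 2 in the other, or else the 2 largest changes. Map2k6, Srf, the ternary complex factors, Nr4a2, Ccnd1 and the named cell markers were added after their values were seen. The members and lists were chosen with earlier results of these data known. Figures used matplotlib 3.10.9 in Python 3.11.15.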

Additional observations from a re-analysis of the deposited data

How the results depend on the processing

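Fos, Fosb and Fosl1 were called higher in 11 of 14 alternatives to the arrays, probe sets, level filter, scaling, prior and weights, and Egr1 in 10, with the direction kept in all of them. Their changes ranged from 0.38 to 0.61 for Fos, 0.58 to 0.87 for Fosb, 0.47 to 0.68 for Fosl1 and 0.32 to 0.54 for Egr1. The alternatives are not independent checks. For these 4 genes the other probe set choices, the replicate block, the level filter and the prior could change the call but not the size or direction. In a limma fit of all 35556 probe sets, without reduction to 1 per gene, only Fosl1 of these 4 was called (FDR = 0.095). There the FDR was 0.11 for Fosb, 0.13 for Fos and 0.15 for Egr1. The direction of Jun and Jund, which were not called, changed: Jun ran from -0.18 to 0.0082 with an array left out (0.0082 without miR-342-3p replicate 1) and Jund from -0.13 to 0.13 (-0.13 without miR-342-3p replicate 2), with Jund at -0.0045 with each array centered on its median and -0.0030 with array weights. With an array left out, 0 to 6 members were called higher and 0 lower, 4 to 17 of the other immediate early genes were higher, and 88 to 2104 of all genes were higher and 102 to 2422 lower. At an FDR of 0.01 or less no member and 3 other immediate early genes were called, with 33 genes higher and 19 lower, and at an FDR under 0.05 there were 3 members, 312 genes higher and 661 lower. The methods' t-test called no member and no other immediate early gene after adjustment, with 26 genes higher and 22 lower, and 2080 higher genes at an unadjusted p under 0.05. Each array centered gave 408 higher genes. Repeated quantile normalization gave 1826, with 5 members and 15 other immediate early genes. The 9969 genes at or above the median level gave 5 members, with 1086 of these genes higher and 1952 lower. Egr2 had no value there because it lay below that level. In the smaller lists counts changed by over 1.5 times in several settings, among them without a control array, where 0 bZIP partners, 0 MAP kinase genes, 0 promoter factors, and 1 target gene in each direction were called. The replicate numbers of the labels were not taken as pairs: deviations of same-numbered arrays correlated at -0.31, -0.16 and -0.11, and no miR-342-3p array correlated best with its own number. With 3 arrays per group, each centered on its group mean, this check cannot decide whether the samples were paired. With the replicate block 4 members were called higher (Fosb FDR = 0.0054), with 550 genes higher and 1445 lower. The cause of these differences was not tested.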
